A study of Mus musculus with 6 samples.

Results

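At day 7 of differentiation, the mus allele of most X-linked genes gave a small residue of reads beside the cas allele, and a minority of genes still gave it a sizeable part. The 304 genes described here are those with at least 30 allele-specific reads summed over both day 7 libraries, of the 372 X-linked genes in the deposited table. They held 99.4% of the day 7 allele-specific reads. The other 68 genes were under the minimum, 33 of them with 0 mus reads and 3 with no read at all. The RNA came from the mouse line 16.7 TST, labelled wild type. These female embryonic stem cells were sampled on day 0, day 4 and day 7 with 2 RNA-seq libraries a day. Day 0 cells were kept undifferentiated with LIF on irradiated embryonic fibroblast feeders, and day 4 and day 7 cells had been separated from feeders and left without LIF as embryoid bodies, plated on day 4. All 3 days come from a single line, and the labels explain neither TST nor whether replicates were separate cultures. Whether the line is wild type for X inactivation was not tested. The p-values and SE of the main tests rest on a spread between libraries pooled over genes and days, which may be technical. A gene's own difference between its 2 day 7 libraries is not used on its own. The alleles are called cas and mus as in the file headers, where the cas share is headed Xa (active X) and the mus share Xi (inactive X).

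In female mammals 1 X chromosome of each cell is silenced during early differentiation. The long noncoding RNA Xist is transcribed from the chromosome that becomes inactive, coats it in cis, and brings in silencing complexes. Some genes, called escapees, continue to be transcribed from the inactive X, while others are silenced early or late.

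The day 7 libraries held 71193.5 and 69742 allele-specific reads, the fewest of the 6 libraries, since those of day 0 and day 4 held 113708 to 160218, and a member had a median of 116 and 113.5 reads in them. The deposited values are estimated counts in steps of 0.5, and the reason for that step is not given in the sources used here. Since the table holds X-linked genes only, autosomal markers of stem cells were not analysed here. Summed over the stem cell and germline genes that were measured, TPM, a level per transcript length and sequencing depth, ranged from 2187 to 2285 at day 0, from 732.1 to 736.4 at day 4 and from 626.8 to 631.6 at day 7. The 5 of these genes that are members went the other way after day 4. Their own sum rose from 373.1 (replicate 1) and 389.9 (replicate 2) to 571.95 and 566.7 by day 7. It remained under its day 0 values of 1085.5 and 1088.8. The 7 measured genes of a 12-gene feeder fibroblast list summed to 883.1 to 908.6 TPM at day 0, 633.5 to 656.7 at day 4 and 932.1 to 940.8 at day 7. None of the feeder list's collagen I genes or Thy1 was in the table.

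Summed over all members, the mus share of reads was 10.3% ± 0.0393 (SD, n = 2), and without Xist it was 8.19% in replicate 1 and 8.46% in replicate 2. Their 95% Wilson intervals, 7.99% to 8.40% and 8.26% to 8.68%, cover counting error only, as do all intervals and limits here. The median member stood lower, at 4.28% and 4.61%. Without Xist the summed share had been 48.7% in both day 0 libraries and 22.5% and 23.0% at day 4. In bulk RNA, fewer cells transcribing the mus allele and less mus RNA per cell cannot be told apart.

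The direct comparison of alleles gave mus below cas for nearly all members. By the quasi-likelihood test of edgeR, with p adjusted over all genes after Benjamini and Hochberg, 302 members had fewer mus than cas reads, against 92.2% of all genes tested. Xist was the 1 member with more mus reads, where 0.538% of all genes were called higher. It gave 1590.5 mus of 1595.5 reads in replicate 1 and 1396.5 of 1398.5 in replicate 2, a mus share of 99.8% ± 0.12 (SD, n = 2). The remaining member was Nr0b1, an orphan nuclear receptor of the stem cell network. Its mus reads were 15 of 42 and 17 of 38, and its log2 mus-to-cas ratio of -0.58 ± 0.32 (SE) had an adjusted p of 0.0779 by edgeR and 0.00778 by limma, so the call depended on the tool. Calls of Kdm6a, Pnma5, Nexmif and Pir, each with 44 to 73.5 reads, were also lost in other settings. Kdm6a lost it without replicate 1, with an adjusted p of 0.753 by edgeR.

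**Figure D1:**
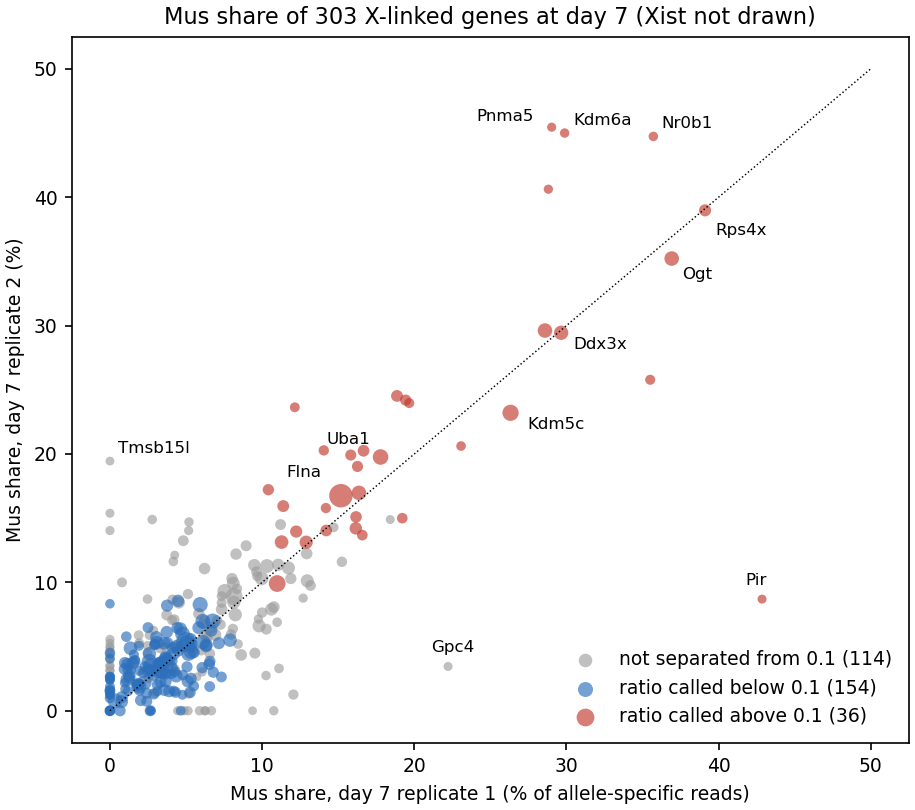
Mus share of reads in percent in day 7 replicate 1 (horizontal) and replicate 2 (vertical), 1 point for each of 303 members, without Xist, coloured by the call against a mus-to-cas ratio of 0.1 and with larger points for more reads. Most members sit near the origin, and the well-read members above the ratio, such as Ogt at 36.9% and 35.2%, lie close to the dotted line of equal shares.

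The libraries ranked members similarly, with a Spearman correlation of 0.645 across the 304 genes, which are not independent replicates. The median difference in mus share between libraries was 1.79 percentage points. All 12 members that differed by over 10 points had at most 150 reads, and the 164 members with at least 200 reads differed by at most 8.42 points. Among those that differed most were Tmsb15l, with 0% and 19.4%, and the glypican gene Gpc4, with 22.2% and 3.45%. Reads of Tmsb15l are uncertain, since near-identical copies exist. Clcn5, a chloride and proton exchanger, was the 1 member whose library intervals did not overlap. Its share was 1.35% of 446 reads (0.618% to 2.90%) in replicate 1 and 4.87% of 492.5 reads (3.30% to 7.15%) in replicate 2.

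A mus level of at least 0.1 of the cas level is a customary definition of expression from the inactive X, and it corresponds to a mus share of 9.09%. Against that ratio, 36 members were above by the same edgeR test and adjustment, 154 were below and 114 were not separated from it. Of all genes tested, 11.3% were called above and 41.4% below. Above the ratio of 0.2 stood 13 members. Without day 7 replicate 1 the members above numbered 28 and those below 94, and without replicate 2 they numbered 28 and 108. Of the 36, 22 kept their call in each of 11 other analyses of the same ratio. Leaving out replicate 1 ended the calls of 5530601H04Rik, Araf, Ftx, Otud5, Hcfc1, Pir, Slc35a2 and Yipf6, and leaving out replicate 2 those of Ebp, Eif1ax, Hprt, Pqbp1, Otud5, Pim2, Prps1, Slc35a2 and Yipf6.

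By pooled share, 15 members had 0 mus reads, 11 lay above 0% and below 1%, 52 from 1% to 2.5%, 93 from 2.5% to 5% and 76 from 5% to 10%. Another 41 lay from 10% to 20%, 8 from 20% to 30% and 7 from 30% to 50%, and Xist alone lay above 50%. Of the 289 members with mus reads, 245 had them in both libraries and 44 in 1 library, with at most 5 reads each.

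The highest shares after Xist were those of Nr0b1, described above, Rps4x and Ogt. Ogt, the enzyme that adds O-GlcNAc to nuclear and cytoplasmic proteins (chromosome X, GRCm38, 101640060 to 101684351), gave 271 mus of 734 reads in replicate 1 and 223.5 of 634.5 in replicate 2. Its shares of 36.9% and 35.2% lay close together, and its ratio stood 2.50 ± 0.09 (log2, SE) above 0.1, with an adjusted p of 1.14e-120 by edgeR. Rps4x, a protein of the small ribosomal subunit, gave 101.5 of 259.5 and 84 of 215.5 mus reads, or 39.1% and 39.0%. Reads of Rps4x are uncertain, since processed copies share its sequence.

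The histone demethylases Kdm5c (X:152233020-152274535), which removes methyl groups from H3K4, and Kdm6a (X:18162575-18279936), which acts on H3K27, were both above. Kdm5c gave 319.5 mus of 1213.5 reads and 268.5 of 1157, or 26.3% and 23.2%. Kdm6a gave 13 of 43.5 and 13.5 of 30, or 29.9% and 45.0%, on far fewer reads. The RNA helicase Ddx3x (X:13280970-13294052) gave 197.5 of 666 and 171.5 of 582.5, or 29.7% and 29.4%. Its values in the libraries were nearly equal. The ribosome biogenesis factor Utp14a gave 28.6% and 29.6%.

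Further genes above the ratio were the H3K9 methyltransferase Suv39h1 with 19.4% and 24.2%, the paraspeckle RNA-binding protein Nono with 18.9% and 24.5%, and Uba1, the enzyme that activates ubiquitin, with 17.8% and 19.8%. Alg13, of N-glycan synthesis, had 16.7% and 20.3%, the purine and pyrimidine precursor enzyme gene Prps1 12.1% and 23.6%, and Plp2, a membrane proteolipid, 15.8% and 19.9%. Igbp1, a partner of protein phosphatases, had 16.3% and 19.0%, and the kinase gene Araf 16.2% and 15.1%. Ebp, a sterol isomerase of cholesterol synthesis, had 12.2% and 14.0%, and the translation initiation factor Eif1ax 11.3% and 13.1%. Both libraries of each of these genes lay above 9.09%. The members with the fewest reads varied most. Pir had 9 mus of 21 reads in replicate 1 and 2 of 23 in replicate 2, Pnma5 had 29.0% of 31 reads and 45.5% of 22, and Nexmif had 28.8% of 29.5 and 40.6% of 32. Hcfc1, a transcriptional coregulator, was the lowest called member, with 11.0% and 9.91% and an adjusted p of 0.0271 by edgeR.

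**Figure D2:**
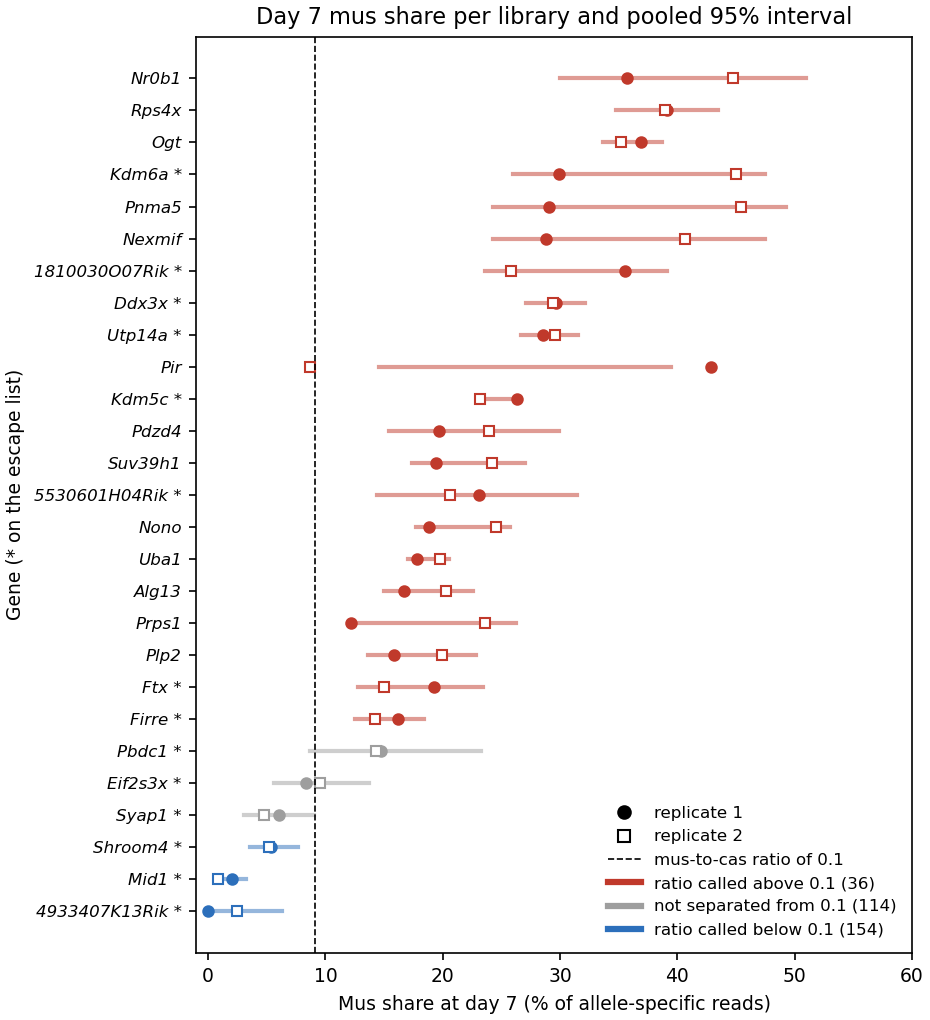
Mus share of reads in percent per day 7 library for the highest members above the ratio and the escape list without Xist, with bars for the 95% Wilson interval of the pooled reads and a dashed line at 9.09%. Ogt, Rps4x and Ddx3x have nearly equal libraries, while Kdm6a and Pir, with few reads, have libraries far apart and wide bars.

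Flna, which encodes the actin cross-linker filamin A (X:74223461-74249820), contributed the most mus reads after Xist. It gave 967.5 mus of 6373.5 reads in replicate 1 and 1138 of 6794.5 in replicate 2, or 15.2% and 16.7%. It held 17.1% and 19.8% of the members' mus reads without Xist, against 4.92% and 4.65% at day 0 and 3.41% and 3.98% at day 4. Flna is also on the feeder fibroblast list, whose summed TPM is given above, and the part of feeders in its share was not tested. The 35 members above the ratio without Xist held 54.8% ± 0.509 (SD, n = 2) of those mus reads. The same members held 29.7% and 29.3% at day 0 and 34.8% and 36.3% at day 4. They were grouped by their day 7 mus share, so a large part at day 7 follows in part from the grouping.

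Levels were compared as mus TPM, the TPM of a library times its mus share. Summed over members without Xist, mus TPM was 1628 and 1707, 7.94% and 8.35% of the members' TPM. The highest was Rps4x at 79.0 and 77.7 mus TPM, then Flna at 60.1 and 65.4 and Xist at 57.7 and 59.3. Suv39h1 followed with 50.9 and 62.3, and its spread covers the values of Xist. The median member above the ratio had a TPM of 67.0 and a mus TPM of 19.4, against a TPM of 45.0 and a mus TPM of 1.52 for members below it. Since the groups were called on the mus share, which is a factor of mus TPM, the difference in mus TPM follows in part from the grouping. Mean TPM and mus share had a Spearman correlation of 0.362 across members, a description only, and reads and mus share one of 0.269. The call itself needs reads, and the members below had a median of 294.25 reads against 109.75 for those not separated.

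**Figure D3:**
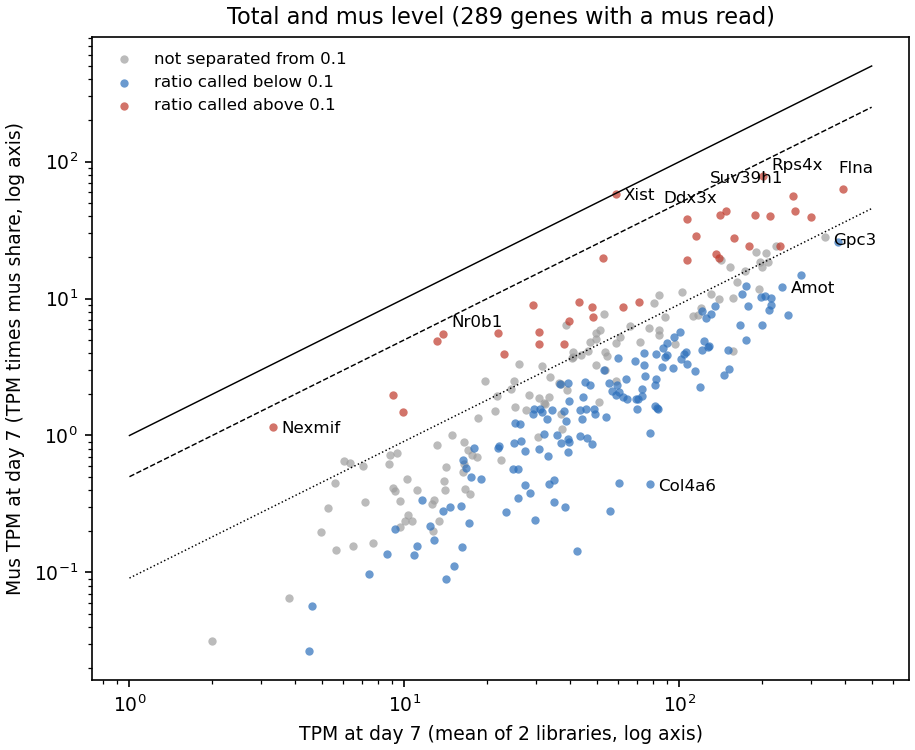
TPM (horizontal) against mus TPM (vertical) at day 7, both log axes and means of 2 libraries, for the 289 members with a mus read, coloured by call. The solid, dashed and dotted lines mark all reads from mus, equal alleles and a ratio of 0.1, and Xist lies on the solid line while Flna and Rps4x hold the highest mus TPM of the other members.

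A set of 15 members gave 0 mus reads in both libraries, with 31.5 to 259 reads, and 13 of them were called below the ratio. Of all genes tested, 41.4% were called below. Since the set was chosen for 0 mus reads in the same data, its calls depend on depth and are no separate support. A count of 0 allows a mus share of up to 1.16% for the most-read and 9.52% for the least-read. Arhgap6, a GTPase-activating protein (X:168795099-169304435), had 0 of 115.5 and 0 of 143.5 reads, which allows up to 1.16%, and its adjusted p against the ratio was 3.37e-08 by edgeR. Ammecr1 had 0 of 58 and 0 of 60.5 (up to 2.53%), and the ETS transcription factor Elf4 had 0 of 60 and 0 of 49 (up to 2.75%). At day 4 these genes had differed, with mean mus shares of 0.901% for Arhgap6, 13.9% for Ammecr1 and 27.9% for Elf4. Further down were the chromatin remodeller Smarca1 with 46.5 reads in all (up to 6.45%), Ptchd1 with 53 (up to 5.66%) and Tceanc with 51 (up to 5.88%). At day 4 the 15 ranged from no mus read in Mid2 to 37.4% in Bclaf3. AU015836 had 0 of 70.5 and 0 of 30, and its below call was lost without replicate 1. Without replicate 1, 3 of the 13 calls were kept, and without replicate 2, 5 were.

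Other members gave few mus reads on many reads in all. The basement membrane collagens Col4a5 and Col4a6 had shares of 0.766% and 0.712%, and of 0.343% and 0.779%. Stard8, a START-domain protein with 4142.5 reads, had 2.77% and 3.40%. Maged1, called below the ratio, and Gpc3, not separated from it, were examples of strongly expressed genes with shares over that of the median member. Maged1 had 6.75% and 6.98% at 380 and 375 TPM, and Gpc3, a cell-surface proteoglycan, 7.54% and 9.30% at 338 and 337 TPM.

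Set against the median gene of the same library, which had a mus share of 4.08% in replicate 1 and 4.61% in replicate 2, 71 members were higher and 18 lower by edgeR's test with Benjamini-Hochberg adjustment. Of all genes, 21.5% were higher and 4.84% lower. Centring by TMM factors between the allele columns gave 49 higher and 86 lower, so the split depends on the centring. The 18 included Arhgap6, Ammecr1, Elf4, AU015836, L1cam, Col4a5, Col4a6, Nrk, Mid1, Zfx, Armcx2 and Stard8.

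Of the 16 measured genes listed as escapees, 15 were members, with a median share of 17.5% against 4.41% for all members. Above the ratio were 9, not separated 3 and below 3, where 11.3% of all genes tested were above and 41.4% below. The list, which includes Xist and Ftx, was chosen with earlier results of these data known. Firre, a noncoding RNA, had 16.2% and 14.2%, and Ftx, a noncoding RNA beside Xist, 19.2% and 15.0%. Pbdc1 had 14.7% and 14.3% (adjusted p = 0.12 by edgeR) and the translation initiation subunit Eif2s3x 8.33% and 9.50%, and neither was separated, nor was Syap1 with 5.36% ± 0.902 (SD, n = 2). Shroom4, with 5.35% and 5.19%, Mid1, a ubiquitin ligase gene with 2.02% and 0.809%, and 4933407K13Rik, with 0% and 2.44%, were below. Jpx was under the minimum. Exons of 72 members overlap another gene, among them Xist and its antisense partner Tsix, Ftx, Utp14a and Suv39h1. Whether counting used strand is not given in the sources used here, so reads of overlapping genes cannot be told apart. Without those members 28 were above the ratio and 117 below.

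A list of 8 X-linked genes with a Y-linked partner was chosen after values were seen and may not be complete. Of these 8, 4 were above (Kdm6a, Ddx3x, Kdm5c, Uba1), 2 were not separated and 2 were below. Of all genes tested, 11.3% were above and 41.4% below. The deubiquitinase gene Usp9x had 9.97% and 10.3%. The transcription factor gene Zfx had 4 mus of 151 reads and 0 of 129. The list's median share was 14.4%.

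Among the X-inactivation centre genes, Rlim, a ubiquitin ligase that promotes Xist expression, had 5.34% and 4.61%. Chic1 had 5.13% and 0%. The counts of the gene lists that follow stand beside 11.3% of all genes tested above the ratio and 41.4% below it. Of the ribosome and translation list, 3 of 7 members were above, 4 were not separated and none was below, with a median of 12.2%. Of the chromatin and transcription list, 5 of 21 were above and 12 below, with a median of 5.73%. Of the ubiquitin list, 1 of 13 was above and 6 below. The E3 ligase Huwe1 had 8.15% and 8.91%.

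Of the differentiation list, 1 of 23 members was above, Bex1 with 12.9% and 13.1%, 15 were below and 7 not separated, with a median share of 2.87%. Of the metabolic and mitochondrial list, 3 of 19 were above, among them Idh3g, a subunit of the mitochondrial isocitrate dehydrogenase, with 16.4% and 17.0%, and Hprt, of purine salvage, with 14.1% and 20.3%. Of the RNA-binding list, 2 of 9 were above. Of the stem cell and germline list, 5 of 11 measured genes were members, 1 above (Nr0b1) and 4 below, among them the phosphatase gene Dusp9 with 4.77% and 5.98%. Of the 7 feeder fibroblast genes, Flna was above, 2 were not separated and 4 were below. Moesin, encoded by Msn, had 5.07% and 5.27%, and Bgn, a matrix proteoglycan, had 3 mus of 73.5 and 3 of 42.5 reads. From day 0 the log2 mus-to-cas ratio changed by -13.9 to -4.20 in Bgn, by -12.5 to -7.08 in Col4a5 and by -9.60 to -7.60 in Col4a6. These genes thus had more mus than cas reads at day 0. The ratio changed by -4.70 to -4.78 in Fhl1, by -4.38 to -4.20 in Msn and by -2.63 to -2.40 in Flna. Which allele feeder reads fall on was not tested.

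These promoters are shown to set the 250 bases before the RefSeq start of 2 genes with a high mus share, Ogt and Kdm6a, beside those of genes with 0 mus reads, Arhgap6 and Ammecr1. They are from RefSeq, GRCm38.p6, read 5′ to 3′ on the gene's strand, with CpG dinucleotides in capitals.
Ogt, chrX:101639801-101640050, plus strand: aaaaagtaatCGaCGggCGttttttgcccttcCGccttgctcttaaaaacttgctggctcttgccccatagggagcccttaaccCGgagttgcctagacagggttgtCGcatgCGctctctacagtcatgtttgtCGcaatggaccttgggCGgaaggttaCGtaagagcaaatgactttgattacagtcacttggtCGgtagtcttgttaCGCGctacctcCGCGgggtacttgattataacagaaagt
Kdm6a, chrX:18162325-18162574, plus strand: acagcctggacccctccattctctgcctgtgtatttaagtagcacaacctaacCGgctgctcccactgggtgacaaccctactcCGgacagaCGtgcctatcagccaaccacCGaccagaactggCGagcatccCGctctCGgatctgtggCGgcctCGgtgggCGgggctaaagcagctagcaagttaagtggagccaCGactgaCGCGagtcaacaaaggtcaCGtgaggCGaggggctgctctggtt
Arhgap6, chrX:168794849-168795098, plus strand: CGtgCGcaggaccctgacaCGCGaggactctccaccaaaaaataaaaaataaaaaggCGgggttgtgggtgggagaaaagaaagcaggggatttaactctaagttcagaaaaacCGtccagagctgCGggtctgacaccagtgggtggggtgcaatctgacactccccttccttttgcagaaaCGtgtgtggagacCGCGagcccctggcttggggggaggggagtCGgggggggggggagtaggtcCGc
Ammecr1, chrX:142966727-142966976, minus strand: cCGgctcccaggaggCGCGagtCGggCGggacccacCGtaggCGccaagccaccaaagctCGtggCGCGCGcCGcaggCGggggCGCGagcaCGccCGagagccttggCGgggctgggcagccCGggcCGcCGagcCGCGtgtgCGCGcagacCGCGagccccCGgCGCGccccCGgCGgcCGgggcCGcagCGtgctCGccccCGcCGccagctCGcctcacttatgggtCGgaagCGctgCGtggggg
They hold 15, 15, 12 and 42 CpGs, and the longer 300-base promoters of the same genes hold 20, 21, 14 and 44. Over the 260 members with a RefSeq promoter of 300 bases, the median CpG count was 17 for members above the ratio, 17 for those not separated, 16 for those below and 17.5 for those with 0 mus reads, against 7.0 for all promoters. The YY1 motif GCCATNTT, searched on both strands, was in 5 of 35 promoters above (14.3%), 13 of 94 not separated (13.8%), 13 of 131 below (9.92%) and 3 of 12 with 0 mus reads. It was in 7.28% of all promoters on chromosome X and 6.05% of all promoters. The 250 bases printed for each gene do not hold it, but the 300-base promoter of Ammecr1 holds 1 and is among those counted.

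Along the chromosome, members above the ratio were spread over 13 of the 16 bins of 10 Mb that hold members. The bin from 100 to 110 Mb, which holds Xist, had 8 of 37 members above, against 11.8% of all members. The bin from 0 to 10 Mb had 7 of 28, with a median share of 6.87%. The bin from 130 to 140 Mb had 1 of 28 and a median of 2.53%. An adjacent member above was found for 8 of the 36 members above and for 60 of the 268 others. Distance from Xist and mus share had a Spearman correlation of 0.0375 across members, and the position of the gene start and mus share one of -0.213, both descriptions only. Otud5, Pim2, Slc35a2 and Pqbp1 (X:7841364-7899269) were the longest run of adjacent members above, with shares from 10.4% to 17.2%, and each of these calls was lost without 1 of the day 7 libraries.

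**Figure D4:**
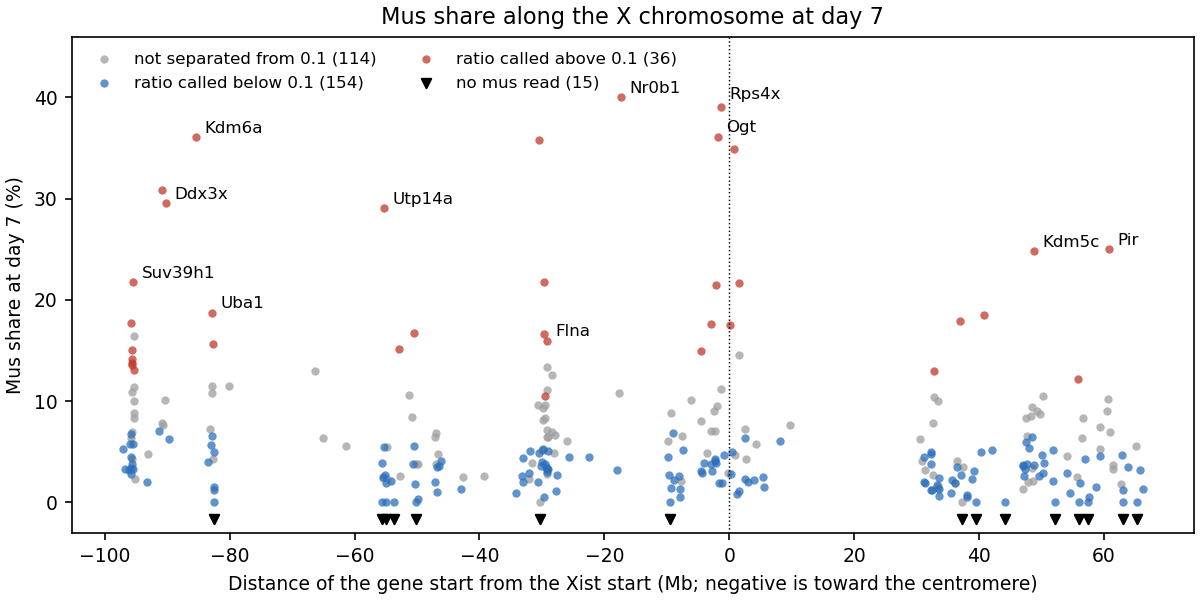
Mus share of reads at day 7 in percent (vertical) from the pooled reads against the distance of each gene start from the Xist start in Mb (horizontal), with Xist itself off the scale and triangles for the 15 members with no mus read. Members above the ratio are found on both sides of Xist, near it and far from it.

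The earlier shares of the groups called at day 7 are given as a description, with no test. The median mus share at day 4 was 35.0% for members above the ratio, 22.2% for those not separated and 16.8% for those below, and at day 0 it was 50.3%, 49.8% and 47.4%. At day 4, 23 of the 36 members above were over 30% and 0 were under 15%, while 6 of the 154 below were over 30% and 70 were under 15%. Of the 114 not separated, 20 were over 30% and 26 under 15%, and of all 304 members 49 and 96. Of the 8 noncoding members, 4 were above (Xist, Ftx, Firre, 5530601H04Rik) and 4 below, against the 11.3% and 41.4% of all genes tested.

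The members differed in how far they had come since day 4. By edgeR's interaction contrast with Benjamini-Hochberg adjustment, the mus-to-cas ratio was lower at day 7 than at day 4 in 249 members and higher in 2, against 68.3% lower and 1.08% higher of all genes. Against day 0 it was lower in 299 and higher in 1, Xist, against 89.8% and 0.538% of all genes. Without day 0 replicate 2 the change of Xist, 2.22 ± 0.64 (log2, SE), became 1.94 with an adjusted p of 0.137 by edgeR. Of the 36 members above the ratio, 25 had fallen since day 4 and 11 had no call. The mus share at day 4 and that at day 7 had a Spearman correlation of 0.636 across 302 members.

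Ogt was at 36.9% at day 4 and 36.1% ± 1.20 (SD, n = 2) at day 7, with a change of -0.05 ± 0.11 (log2, SE; adjusted p = 0.723 by edgeR), and Rps4x had one of 0.10 ± 0.15 (adjusted p = 0.55). Kdm5c had fallen by 0.78 ± 0.09, from 36.2%, and Ddx3x by 0.45 ± 0.12, from 36.5%. Usp9x had been at 33.7% at day 4 and had fallen by 2.17 ± 0.13. Flna had reached 19.4% ± 1.42 at day 4 and changed by -0.34 ± 0.06 after that.

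Amot, a scaffold protein of the Hippo pathway, rose. It gave 145.5 mus of 2918.5 reads and 142.5 of 2653 at day 7, or 4.99% and 5.37%, against 2.72% ± 0.411 at day 4 and 46.2% ± 0.803 at day 0. Its change from day 4 was 0.95 ± 0.14 (adjusted p = 6.05e-10 by edgeR), and the day 7 values lay above both at day 4. Rtl8c rose by 3.28 ± 1.37 (adjusted p = 0.0252 by edgeR) on 1 and 3 mus reads of 53 and 51. The adjusted p of Rtl8c became 0.0864 without day 4 replicate 1, 0.0823 without day 4 replicate 2 and 0.346 without day 7 replicate 2.

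**Figure D5:**
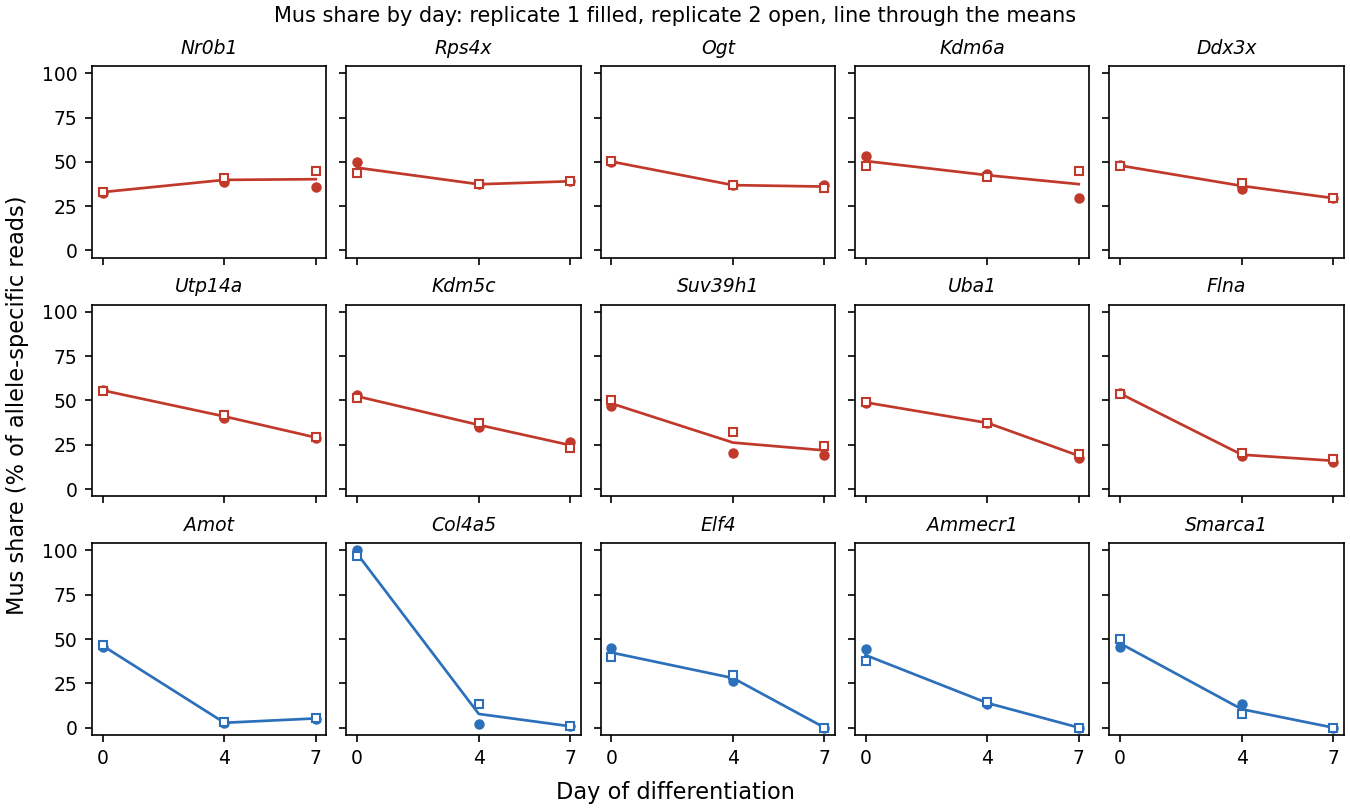
Mus share of reads in percent at day 0, day 4 and day 7 for 15 members, chosen to show each kind of course, with filled and open points for replicates 1 and 2 and a line through the means. Ogt and Rps4x stay level from day 4 to day 7, Kdm5c and Ddx3x drop, and Amot is near 5% at day 7 after 2.72% at day 4.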

How the data were processed

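RNA-seq was analysed for 3 days with 2 libraries each. Per the labels' protocols, ribosomal RNA was depleted from total RNA and a directional second-strand module was used. The authors deposited allele-specific estimated counts per gene and library, in steps of 0.5, which were rounded to whole numbers for the tests. The authors also deposited each allele's fraction, against which the recomputed shares were checked, and TPM per gene and library. The submitters' processing notes name HOMER 4.10, Trim Galore 0.4.1, limma, edgeR and STAR, and the builds GRCm38 and mm10. What each did is not stated there. Per gene, the log2 TPM difference of the day 7 libraries was a linear function of those of day 0 and day 4, so TPM served for levels only and its spread between libraries is no replicate error.

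The 12 allele columns of all 372 genes were fitted with edgeR 4.0.16 in R 4.3.3, with a term per library and an allele term per day. Quasi-likelihood tests compared mus with cas reads at day 7, the ratio with 0.1, the ratio with the median gene, and day 7 with day 4 and day 0. The fit's prior degrees of freedom were infinite, so the spread used for a gene was taken from all genes. Benjamini-Hochberg adjustment ran over all genes, with calls at 0.05. The day 7 reads per library are in the report. The tests were tried on simulated data. DESeq2 1.42.0, limma 3.58.1 on log odds with a pseudocount of 0.5, other read minimums, other ratios and leaving out each library were alternatives. Coordinates are from GENCODE M21 on GRCm38 and promoters from RefSeq on GRCm38.p6. Named genes were the inactivation centre and escape lists, the highest members by share, mus TPM and TPM, the members with 0 mus reads and the most-read of each list, and others named were chosen after values were seen. The members and lists were chosen with earlier results of these data known. Some genes are not reported here.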

Additional observations from a re-analysis of the deposited data

Results flagged for a closer look

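The effect of the allele differed between days by the interaction test of edgeR with Benjamini-Hochberg adjustment, which singled out the following results. The mus-to-cas ratio was lower at day 7 than at day 4 in 249 members and higher in 2, and lower than at day 0 in 299 and higher in 1. Amot rose by 0.95 and Rtl8c by 3.28 on the log2 scale from day 4 to day 7, the second on 4 mus reads in all. Xist rose by 2.22 on the log2 scale from day 0 to day 7, with a mus share that was already 98.9% ± 0.245 (SD, n = 2) at day 0.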

How the results depend on the processing

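Members below the ratio of 0.1 numbered 94 to 129 when 1 library was left out. A ratio of 0.05 gave 67 above and 28 below, and a ratio of 0.2 gave 13 above and 255 below. Members lower than the median gene numbered 11 with DESeq2, 39 with limma, 86 with TMM centring and 9 to 12 with 1 library left out. Members higher at day 7 than at day 4 numbered 4 with limma and 1 to 2 with 1 library left out, and those higher than at day 0 numbered 0 to 1. Genes with more mus than cas reads numbered 2 with a minimum of 10 reads, 2 with no minimum and 0 without overlapping members, an alternative chosen after seeing the data. With at most 1 mus read the members without mus reads became 40, with a minimum of 10 reads 24, with one of 100 reads 4, and with 1 library 29 to 45. A minimum of 100 reads gave a median mus share of 4.90%, a summed share of 10.4% and median TPM of 111 above and 55.3 below, and leaving out Xist gave a summed share of 8.33%. Pir stood between -0.0704 and 2.91 (log2, against the ratio) with 1 library left out, and the low value was that without day 7 replicate 1. The cause was not tested. Among the genes chosen by the naming rule, not all members, 1500 values stayed on their side of the threshold, 57 lost a call, 6 gained one and 1 changed sign, leaving out those with 0 mus reads, which have no fitted ratio. Of the 154 below calls, 92 were kept without day 7 replicate 1. Of the 13 members with 0 mus reads called below the ratio, 9 kept the call with DESeq2, 5 with the day 7 libraries alone and 10 with the replicate block.

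Same-numbered deviations of the log mus-to-cas ratio had correlations of -0.0960, 0.0608 and -0.128 between days. An effect common to both alleles of a library cancels in them, and the TPM differences were linearly related between days. Whether replicate numbers pair the samples was therefore not tested. With the replicate number as a block, 36 members were above the ratio and 144 below. Depth limits the members with few reads, for which a count of 0 allows a mus share of up to 9.52%.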

Other observations

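Just inside the minimum of 30 reads lay Brcc3 with 30.5 reads, Bclaf3 with 31.5 and F8a with 32, and just outside it Mcf2 with 28.5 and Vma21 with 28.5. Among the genes under the minimum were 6 of the stem cell and germline list. Eras, a Ras-like gene of stem cells, had a mus share of 30.3% of 16.5 reads, the homeobox gene Rhox6 29.7% of 18.5, and Rhox9 37.5% of 8. Trap1a had 86.5% of 18.5 reads, Xlr3a had 0 mus reads of 5.5 and Tex11 0 of 0.5. Of all genes under the minimum, 6 were called above the ratio of 0.1 by edgeR, namely Jpx, Kis2, Mcf2, Platr21, Rhox6 and Trap1a, and 0 were called below it. At these depths their shares are loosely set.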
